A study of Mus musculus with 4 samples.

Results

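Genes of extracellular purine handling and a gene of the folate receptor family were followed in memory-type CD4+ T cells of the mouse brain and spleen. The 5 genes were P2rx7 (ENSMUSG00000029468), Entpd1 (ENSMUSG00000048120), Nt5e (ENSMUSG00000032420), Adora2a (ENSMUSG00000020178) and, for the folate receptor family, Izumo1r (ENSMUSG00000031933). These are 5 of the 33696 genes in both count matrices, chosen by name with earlier results of these data known. All 5 passed 10 unique molecular identifiers (UMIs, each tagging 1 captured RNA molecule) in every 1e6, the unit CPM, in both tissues, so none was dropped for a low level. The cells came from C57BL/6 mice labelled WT in which experimental autoimmune encephalomyelitis (EAE), a model of multiple sclerosis started by immunization, had run for 60 days. Conventional T cells were sorted as CD4+, CD44+ and GITR-, and each tissue gave 1 library of 5′ single-cell RNA and 1 library of T cell receptor sequences. The labels do not give the number of mice, unimmunized mice are not part of this comparison, and both tissues carry the same genotype, day and sort. The tissue ratio is therefore brain over spleen of diseased mice, with 1 library on each side, and no p-value or replicate error could be given. Intervals in brackets are exact 95% intervals and cover counting error only.

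Stressed or dying cells release ATP, which opens P2X7, the ion channel encoded by P2rx7. CD39, encoded by Entpd1, trims ATP and ADP to AMP, and CD73, encoded by Nt5e, turns AMP into adenosine, which the adenosine receptor encoded by Adora2a reads as a brake on T cell activation. Folate receptor 4 (FR4), encoded by Izumo1r, is high on regulatory T cells and, together with CD73, is used to mark anergic CD4+ T cells in mice. Foxp3 marks regulatory cells, Cxcr5 follicular helper cells, Tcf7 (TCF-1) naive-like and stem-like memory cells, Il17a and Ifng the cytokine-producing effector cells.

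The RNA libraries held 3944 brain T cells with 41091711 UMIs and a median of 9840 per cell, and 7992 spleen T cells with 60481268 UMIs and a median of 7190. Both libraries had the defining T cell genes, with Cd3e at 737 (brain) and 740.4 (spleen) CPM and Cd4 at 338 (brain) and 341 (spleen) CPM. Despite the GITR- sort, Foxp3 was detected in 6.72% of brain cells and 11.9% of spleen cells, and Tnfrsf18, which encodes GITR, was still present at 169 CPM in brain cells and 142 CPM in spleen cells. The summed level of 38 stress and early-response genes was 23708 CPM in brain and 7292 CPM in spleen, with 25 of the 38 higher in brain and 0 lower, and taking these genes out of the totals left the log2 tissue ratios at 0.76 for Entpd1, 0.74 for Nt5e and -1.78 for Izumo1r. The 8 B cell markers summed to 4.16 CPM in brain and 9.99 CPM in spleen, and the 10 myeloid markers to 11.5 and 6.56 CPM. A total of 31 cell barcodes occurred in both libraries, 15 of them among the cells used, and 0 of those carried the same receptor in both.

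The rule on which these genes were followed pairs Entpd1 with Nt5e and Izumo1r with Nt5e, so the RefSeq promoters of these 3 genes are shown (mouse build GRCm38.p6, 5′ to 3′ on the gene's own strand, 250 bases before and 50 after the annotated start). Capitals mark matches on either strand to GGAAA, the core bound by NFAT factors. The other motifs searched on both strands were TGANTCA (AP-1), CTTTGA (TCF/LEF) and GTAAACA (forkhead), and these 3 have no match in the 4 windows shown.
Izumo1r, chr9:14903718-14904017, minus strand: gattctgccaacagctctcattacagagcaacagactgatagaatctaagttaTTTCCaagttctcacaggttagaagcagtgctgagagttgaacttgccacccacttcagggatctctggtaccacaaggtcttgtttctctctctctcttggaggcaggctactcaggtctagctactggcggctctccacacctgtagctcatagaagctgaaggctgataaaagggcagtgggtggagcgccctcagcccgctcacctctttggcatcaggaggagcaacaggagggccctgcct
Nt5e, chr9:88327359-88327658, plus strand: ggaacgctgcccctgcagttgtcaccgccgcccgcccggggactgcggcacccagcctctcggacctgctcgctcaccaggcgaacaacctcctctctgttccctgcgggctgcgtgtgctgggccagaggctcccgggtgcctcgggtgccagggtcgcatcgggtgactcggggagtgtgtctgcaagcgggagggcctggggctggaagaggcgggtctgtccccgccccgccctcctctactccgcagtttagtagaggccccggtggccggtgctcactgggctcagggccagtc
Entpd1 start 1, chr19:40612116-40612415, plus strand: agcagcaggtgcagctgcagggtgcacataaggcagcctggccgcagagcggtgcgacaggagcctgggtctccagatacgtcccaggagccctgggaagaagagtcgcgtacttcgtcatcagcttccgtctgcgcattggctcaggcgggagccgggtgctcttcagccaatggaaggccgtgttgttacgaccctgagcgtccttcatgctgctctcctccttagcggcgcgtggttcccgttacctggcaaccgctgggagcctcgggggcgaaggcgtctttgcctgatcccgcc
Entpd1 start 2, chr19:40659520-40659819, plus strand: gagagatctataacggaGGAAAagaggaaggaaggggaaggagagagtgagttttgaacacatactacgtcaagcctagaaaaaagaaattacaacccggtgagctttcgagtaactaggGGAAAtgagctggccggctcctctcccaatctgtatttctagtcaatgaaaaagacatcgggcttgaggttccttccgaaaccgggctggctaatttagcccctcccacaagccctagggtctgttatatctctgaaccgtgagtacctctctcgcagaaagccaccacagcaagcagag

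GGAAA was found 1 time in the Izumo1r window, 2 times at the second Entpd1 start, and in neither the Nt5e window nor the first Entpd1 window. Of the 32851 promoters of this length in the table, 61.3% held GGAAA, 16.0% CTTTGA, 7.81% TGANTCA and 3.65% GTAAACA, so a GGAAA match is common. The first of 2 P2rx7 starts held TGANTCA at bases 2 to 8 and GGAAA at bases 78 to 82 of its window, and the second held CTTTGA at bases 152 to 157. The TGANTCA match was found on both strands at the same bases, and matches at different bases did not overlap. Adora2a has no window shown. These letters describe the windows and say nothing of which factor binds there.

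Between the tissues, 1 of the 5 genes was lower in brain, 2 were higher, and 2 did not pass. A gene was called where the ratio was at least 1.5 in either direction, its interval left out 1 and the higher side reached 10 CPM. Over all 8645 genes that reached this level, 9.81% were called higher in brain and 8.66% lower. Izumo1r had 89.4 CPM in brain cells against 311 CPM in spleen cells, giving a ratio of 0.287 (0.277 to 0.298). The ATP-degrading enzyme gene Entpd1 reached 34.5 CPM in brain cells, with 20.7 CPM in spleen cells, for a ratio of 1.66 (1.54 to 1.80). Nt5e, which acts next in the chain, held 105 CPM in brain cells, against 63.8 CPM in spleen cells, for a ratio of 1.64 (1.57 to 1.71). The receptor genes at each end of the chain differed less. P2rx7 held 78.1 CPM in brain cells, against 77.3 CPM in spleen cells, or 1.01 (0.966 to 1.06). Adora2a held 32.8 CPM in brain cells, against 27.8 CPM in spleen cells, or 1.18 (1.10 to 1.27), below the ratio needed for a call.

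The share of cells with a UMI was compared at equal depth. With every cell thinned to 3000 UMIs, Izumo1r was detected in 16.7% of brain cells (15.5 to 18.0) and 36.1% of spleen cells (35.02 to 37.2). Without thinning the shares were 27.7% in brain and 48.6% in spleen. Positive brain cells held 3.36 Izumo1r UMIs on average and positive spleen cells 4.85, although brain cells were sequenced more deeply, and 6.69% of brain cells and 17.6% of spleen cells held 5 or more. In 165 spleen barcodes set aside for B cell markers, 3.64% had an Izumo1r UMI at a median of 5468 UMIs. Whether free RNA gave these UMIs was not tested.

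The thinned share for Entpd1 was 8.98% of brain cells and 5.36% of spleen cells, and for Nt5e it was 20.1% and 14.9%. Unthinned, Entpd1 was detected in 22.3% of brain and 10.8% of spleen cells and Nt5e in 40.9% of brain and 27.2% of spleen cells. P2rx7 (18.6% of thinned brain cells and 17.4% of thinned spleen cells) and Adora2a (9.47% and 7.68%) were detected at closer shares. The same B-marked spleen barcodes had Entpd1 in 13.9%, P2rx7 in 6.06%, Nt5e in 5.45% and Adora2a in 2.42%. B cells are known to carry CD39 themselves, so their Entpd1 share is not a measure of free RNA. Averaged over cells instead of over UMIs, the log2 ratios of Entpd1 and Nt5e were 0.56 and 0.54, under the ratio of 1.5. In the 25% of brain cells with the least stress and early-response RNA (986 cells, 10553 CPM summed), the log2 ratio of Izumo1r to spleen was -1.35, against -1.80 over all brain cells.

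Most other genes of the same families differed less than Izumo1r did. Among 18 other purine receptor genes, 3 reached 10 CPM, with a median log2 ratio of 0.07. Of these P2ry10, a receptor for lysophosphatidylserine despite its name, was higher in brain (143 CPM in brain, 70.9 CPM in spleen, ratio 2.02), and its near copy P2ry10b was lower (6.60 and 10.6 CPM, ratio 0.624). Because these genes are close copies, reads may be split between them. Of 27 other nucleotide enzyme and transporter genes, 15 reached the level, with 1 higher in brain and 5 lower. Cd38, an enzyme that consumes NAD, was the one that was higher (16.5 CPM in brain cells, 10.2 CPM in spleen cells). Art2b, whose product transfers ADP-ribose from NAD onto P2X7, was lower at 18.3 CPM in brain cells against 47.8 CPM in spleen cells (0.383), as was its near copy Art2a (0.827 and 11.7 CPM). The nucleoside transporter genes Slc28a2 (72.9 CPM in brain, 114 CPM in spleen) and Slc28a2b (8.79 and 56.8 CPM), also near copies, and the AMP deaminase gene Ampd3 (3.31 and 10.9 CPM) were lower as well. The list median was -0.32 on the log2 scale, beside -0.09 over all genes tested.

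Folate genes other than Izumo1r moved little: 13 of 22 reached 10 CPM, and 11 were not called. Ggh, a lysosomal enzyme that removes glutamates from folates, was higher at 32.2 CPM in brain cells against 20.5 CPM in spleen cells, and Gart, a folate-using purine synthesis enzyme, was lower at 24.7 and 38.1 CPM. The list median was -0.13 on the log2 scale. In a list of 19 genes linked to T cell anergy, without Izumo1r and Nt5e, 15 reached the level, 6 were higher in brain and 3 lower, with a list median of 0.16. The highest ratios belonged to Nr4a1 (6.75), an early-response nuclear receptor that is also common in freshly dissociated cells, Tnfsf11 (5.18) and Tob1 (2.97). Dtx1, a Notch-pathway ubiquitin ligase linked to anergy, fell to 22.5 CPM in brain, against 114 CPM in spleen. The inhibitory receptor gene Ctla4 was higher at 676 CPM in brain cells, against 243 CPM in spleen cells (2.78). Of the 6 regulatory T cell markers 1 was higher in brain and 2 lower, and of the 6 follicular helper markers 0 were higher and 3 lower.

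**Figure D1:**
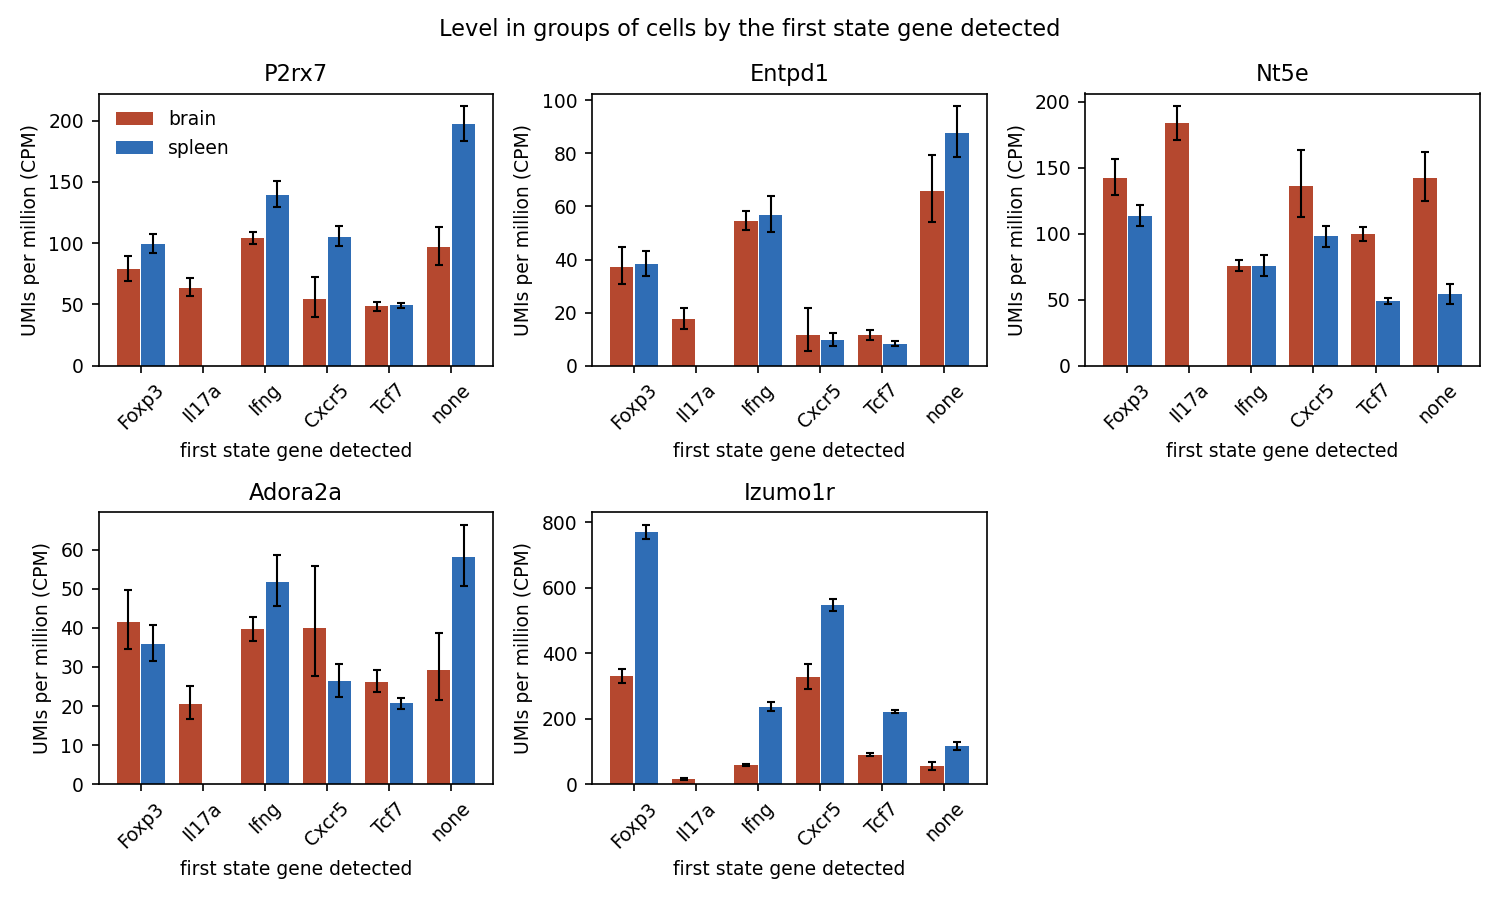
Level in CPM of each gene in cells grouped by the first state gene detected in the order Foxp3, Il17a, Ifng, Cxcr5, Tcf7 (none: no UMI of any of the 5), in brain (red, left) and spleen (blue, right); bars are summed UMIs of 1 library as CPM and error bars exact 95% counting intervals. Izumo1r stands at 771 CPM in spleen Foxp3 cells and 15.7 CPM in brain Il17a cells; the spleen Il17a group of 10 cells is not drawn.

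Each cell was also put in 1 group only, by the first of Foxp3, Il17a, Ifng, Cxcr5 and Tcf7 with a UMI, which gave 11 groups of 20 cells or more, and the plot of levels by first state gene shows them. Izumo1r spanned the widest range. It was highest in spleen Foxp3 cells (771 CPM, 952 cells), then spleen Cxcr5 cells (548 CPM), followed by brain Foxp3 cells (330.1 CPM) and brain Cxcr5 cells (328 CPM), whose ratio of 1.01 had an interval that included 1. Spleen Ifng cells (236 CPM) and spleen Tcf7 cells (221 CPM) came next, and brain Il17a cells were last at 15.7 CPM. Every brain group with a spleen counterpart was lower than that counterpart, with ratios between 0.227 in Ifng cells and 0.481 in Cxcr5 cells when all cells with the state gene were used.

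The 2 enzyme genes were ordered differently from Izumo1r and from each other. Entpd1 was highest in cells with none of the state genes (65.9 CPM in brain, 87.8 CPM in spleen) and in Ifng cells (54.6 CPM in brain, 56.7 CPM in spleen, with an interval of their ratio that included 1). It stood at 37.2 CPM in brain Foxp3 cells and 38.3 CPM in spleen Foxp3 cells, again not separable, and lowest in Cxcr5 and Tcf7 groups, between 8.21 CPM in spleen Tcf7 cells and 11.7 CPM in brain Cxcr5 cells, where no neighbours could be told apart. Nt5e was highest in brain Il17a cells (184 CPM) and lowest in spleen Tcf7 cells (48.8 CPM). Brain Foxp3 cells (143 CPM), brain Cxcr5 cells (136 CPM) and brain cells with no state gene (143 CPM) followed the Il17a cells and could not be told apart from each other. Ifng cells of brain and spleen had the same Nt5e level within counting error (75.8 CPM in brain cells, 75.7 CPM in spleen cells).

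Among the receptors, P2rx7 peaked in spleen cells with no state gene (197 CPM) and spleen Ifng cells (140 CPM), and was lowest in Tcf7 cells of brain (48.5 CPM) and spleen (49.1 CPM), which did not differ beyond counting error. Brain Ifng cells held 104 CPM. Adora2a covered the narrowest range as a ratio of highest to lowest, from 20.5 CPM in brain Il17a cells to 58.2 CPM in spleen cells with no state gene, and for 8 of its 10 neighbouring pairs the interval of the ratio included 1.

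The genes whose level across these 11 groups was most like each member's were found by Pearson's r of log2(CPM + 10) among 7496 genes that reached 20 CPM in some group. The groups share 2 libraries and their cells were split by 5 genes, so r is a description. Izumo1r was closest to Ptch1 (r = 0.97), Id3 (0.96), Cd27 (0.95), Utp3 (0.95) and Zfp260 (0.94). Entpd1 was closest to H2-Q5 (0.96), Ptprj (0.96), Peak1 (0.95), Pvrig (0.95) and Serpina3g (0.94). Nt5e was closest to Nrip1 (0.92), Dusp4 (0.90), Ctla4 (0.90), Marchf3 (0.89) and Arhgef10 (0.89), and Adora2a to Gimap5 (0.90), Icam1 (0.89), Serpinb6b (0.89), Plagl2 (0.88) and Zcchc18 (0.88). Among the genes closest to P2rx7 were Alad (0.92), Ankrd54 (0.92), E2f3 (0.91) and Dnajb11 (0.91). Among the members themselves P2rx7 ran with Entpd1 (r = 0.81) and Adora2a (0.72), while Nt5e ran with none of the others (r between -0.34 and -0.14).

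**Figure D2:**
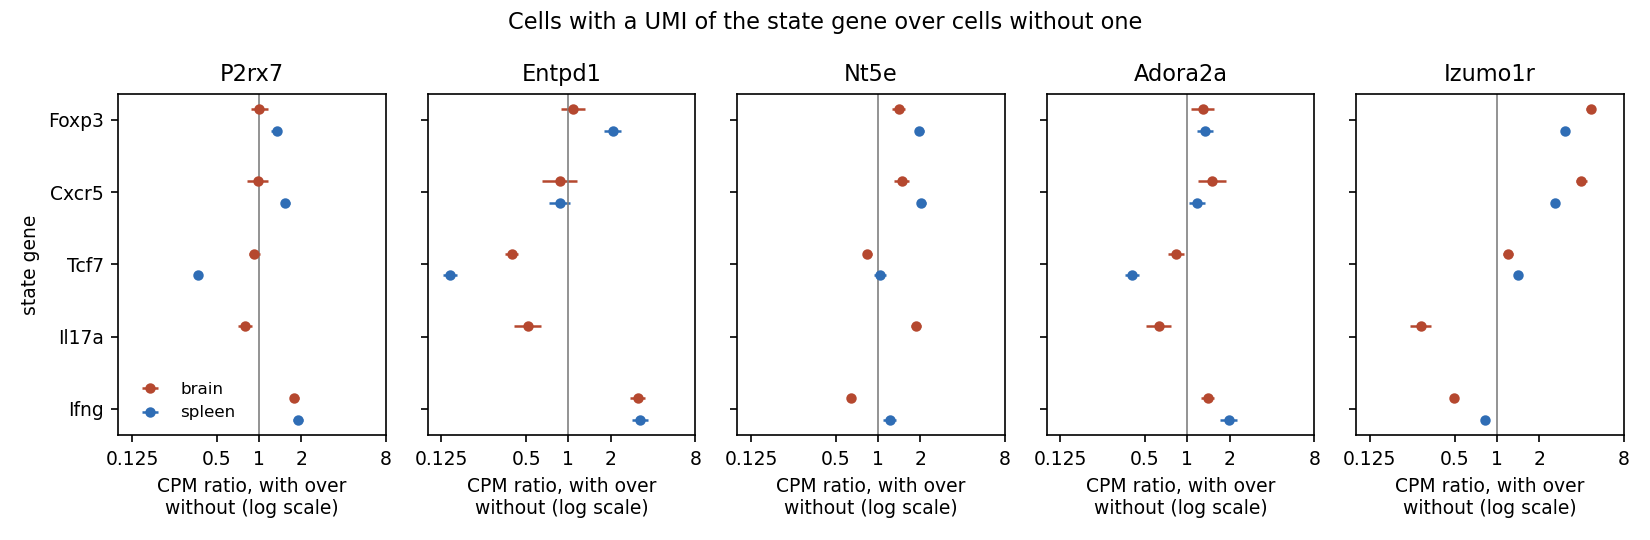
Ratio of CPM in cells with a UMI of the state gene over cells without one (log axis) for each of the 5 genes, in brain (red) and spleen (blue); points are ratios of 1 library and lines exact 95% counting intervals. Izumo1r lies to the right of 1 for Foxp3 and Cxcr5 in both tissues and to the left for Il17a; Entpd1 lies to the right for Ifng and to the left for Tcf7.

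Comparing all cells with a state gene against all cells without it, 12 of 25 gene and state pairs were called in brain (6 higher and 6 lower) and 12 of 20 in spleen (9 higher and 3 lower). Spleen had only 11 cells with Il17a, so that state was compared in brain alone. Cells sharing a state gene are cells of 1 library, not replicates, and detection depends on depth. Median UMIs in brain were 9214 to 11565.5 with a state gene and 7813 to 9872 without it, and in spleen 6576.5 to 7503 with and 5880 to 7258.5 without. Over all genes tested, Foxp3 cells had 5.88% called higher and 4.60% lower in brain, and 6.32% higher and 3.67% lower in spleen. For Cxcr5 these shares were 6.99% and 5.69% in brain, and 5.90% and 2.87% in spleen. They were 1.70% higher and 5.47% lower for Tcf7 in brain and 3.75% and 11.5% in spleen, 6.33% and 5.38% for Il17a in brain, and 3.84% and 3.68% for Ifng in brain and 10.7% and 3.72% in spleen.

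Izumo1r was raised with both Foxp3 and Cxcr5. Brain Foxp3 cells held 330.1 CPM, against 70.6 CPM in brain cells without Foxp3, a ratio of 4.68 (4.34 to 5.03). Spleen Foxp3 cells held 771 CPM, against 252 CPM without, a ratio of 3.05 (2.96 to 3.15). With Cxcr5 it was 316 CPM, against 79.1 CPM without in brain (ratio 3.997), and 657 against 253 CPM in spleen (2.59). Izumo1r fell to 28.0 CPM in brain Il17a cells, against 97.7 CPM without, and to 58.7 CPM in brain Ifng cells, against 118 CPM without. The Il17a log2 ratio was -1.80, and -3.17 when thinned or -3.24 among paired receptors. The Ifng ratio was not called against brain cells with no state gene (log2 0.11). Spleen Ifng cells held 259 CPM, against 316 CPM without, a ratio of 0.818 that was not called. Grouped by 1 state only, spleen Ifng cells held more than spleen cells with no state gene, at 236 against 116 CPM. A cell could be positive for both Ifng and Tcf7, since Tcf7 was detected in 75.0% of brain and 85.6% of spleen cells.

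Entpd1 was higher in Ifng cells of both tissues, at 53.0 CPM, against 17.1 CPM without in brain (3.11, 2.76 to 3.51), and 56.5 against 17.5 CPM in spleen (3.24, 2.83 to 3.70). It was lower in Tcf7 cells, at 26.7 CPM, against 67.6 CPM without in brain (0.396), and 12.3 against 85.0 CPM without in spleen (0.145). Spleen Foxp3 cells had more Entpd1 (38.3 CPM, against 18.5 CPM without, ratio 2.07), and brain Foxp3 cells held 37.2 CPM, against 34.3 CPM without. The spleen log2 ratio was 1.66 without NKT cells. Brain Il17a cells had less (18.8 CPM, against 36.6 CPM without). The Ifng and Foxp3 results depended on what the cells were set against: in cells grouped by 1 state only, brain Ifng cells held 54.6 CPM, against 65.9 CPM in brain cells with none of the state genes, and spleen Ifng cells held 56.7 against 87.8 CPM. Spleen Foxp3 cells held 38.3 CPM against those 87.8 CPM, called lower. Thinned to 3000 UMIs, the brain Ifng log2 ratio was 0.84, against 1.64 unthinned.

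In brain Ifng cells Nt5e was lower where Entpd1 was higher. Brain Ifng cells held 81.8 CPM of Nt5e, against 126 CPM without (0.649, 0.610 to 0.690), whereas spleen Ifng cells held 76.1 CPM, against 62.7 CPM without, ratio 1.21 and not called. Brain Il17a cells held 177 CPM, against 94.8 CPM without, ratio 1.87, although that ratio was not called against cells with no state gene. Nt5e was higher in spleen Foxp3 cells (114 CPM, against 57.5 CPM without, ratio 1.98) and spleen Cxcr5 cells (113 CPM, against 55.6 CPM without, ratio 2.03). In brain the same ratios were 1.40 and 1.48, short of a call. Averaged over cells, both passed the ratio of 1.5 (log2 0.60 with Foxp3 and 0.64 with Cxcr5). With a minimum of 2 Cxcr5 UMIs the brain Cxcr5 ratio was also called higher (log2 0.61).

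P2rx7 was higher with Ifng, at 101 CPM, against 56.5 CPM without in brain (1.79), and 137 against 71.8 CPM in spleen (1.91). It was also higher in spleen Cxcr5 cells (111 CPM, against 71.7 CPM without, ratio 1.55) and lower in spleen Tcf7 cells (64.3 CPM, against 176 CPM without, ratio 0.366). Without cells with an invariant NKT receptor the spleen Ifng ratio was not called (log2 0.50) and the spleen Tcf7 log2 ratio was -0.73. Against cells with no state gene, P2rx7 with Ifng was not called in brain (log2 0.11) and turned round in spleen (-0.50), and with Cxcr5 in spleen it was called lower (-0.90). Adora2a followed P2rx7 in spleen, higher with Ifng (50.6 CPM, against 25.8 CPM without, 1.96; log2 -0.17 and not called against cells with no state gene) and lower with Tcf7 (23.8 CPM, against 58.8 CPM without, 0.404). In brain Adora2a was lower in Il17a cells (21.5 CPM, against 34.3 CPM without, 0.626), and it passed narrowly in Cxcr5 cells (48.3 CPM, against 32.1 CPM without, 1.505). Neither was called against cells with no state gene (log2 -0.51 and 0.45), nor was Cxcr5 with a minimum of 2 UMIs of that gene, while thinning raised the Cxcr5 log2 ratio to 1.19.

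Invariant natural killer T (NKT) cells, recognised here by a TRAV11 and TRAJ18 receptor chain, were part of the sort: 122 brain and 661 spleen T cells. The 121 brain and 655 spleen NKT cells with a paired receptor were set beside the other cells with one. P2rx7 stood at 163 CPM in brain NKT cells, against 71.8 CPM in other brain cells (2.28, 1.97 to 2.62), and 248 against 57.5 CPM in spleen (4.32, 4.04 to 4.61). Entpd1 was at 84.0 CPM, against 30.8 CPM in brain (2.72), and 76.6 against 12.8 CPM in spleen (5.99). Adora2a followed at 53.9 against 30.9 CPM in brain (1.75) and 64.8 against 24.2 CPM in spleen (2.68). Nt5e was lower in NKT cells, at 47.0 against 103 CPM in brain (0.458) and 42.8 against 62.5 CPM in spleen (0.685). Izumo1r held 70.9 against 92.0 CPM in brain (0.771) and 87.7 against 337 CPM in spleen (0.260). These cells are a larger share of the spleen library, so leaving them out moved the log2 ratio of Entpd1 between tissues to 1.09 and that of P2rx7 to 0.30, still not called. Spleen cells with no state gene held 197 CPM of P2rx7, 87.8 of Entpd1, 58.2 of Adora2a, 54.0 of Nt5e and 116 of Izumo1r. Their levels thus lay nearer to spleen NKT cells than to other spleen cells, and the number of NKT cells among them was not counted.

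**Figure D3:**
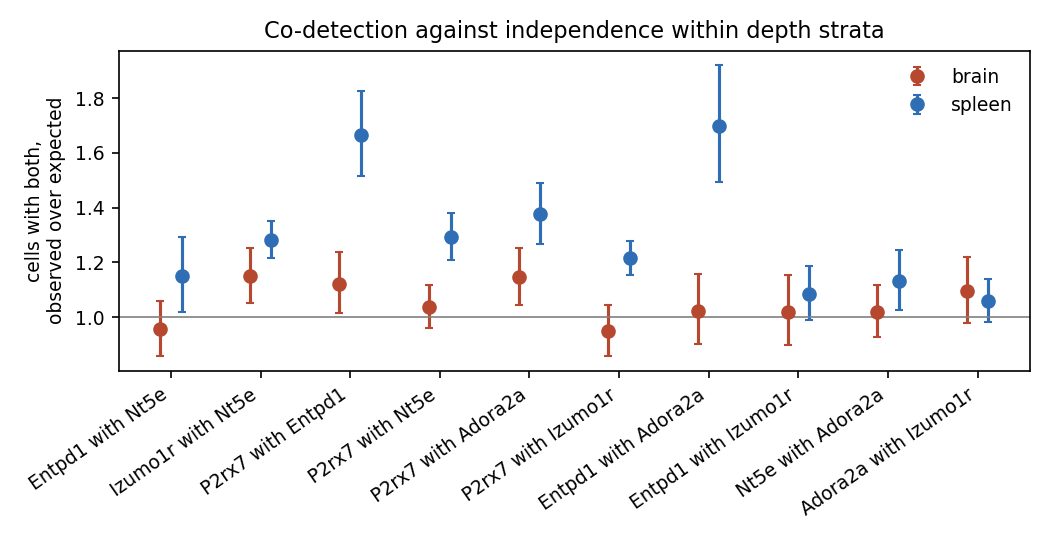
Cells with UMIs of both genes over the number expected if detection were independent within 10 depth strata, for each pair of the 5 genes, in brain (red, left) and spleen (blue, right); points are the ratio in 1 library and lines exact 95% Poisson intervals. In spleen P2rx7 with Entpd1 (1.67) and Entpd1 with Adora2a (1.70) lie highest; in brain Entpd1 with Nt5e (0.955) has an interval that includes 1.

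CD39 and CD73 act one after the other, and their genes could be carried by the same cell or by different ones. Cells were split into 10 strata of depth, and the count expected if the genes were detected independently in each stratum was compared with the observed count. In brain 366 cells had both Entpd1 and Nt5e UMIs, beside 383 expected, a ratio of 0.955 (0.860 to 1.06). In spleen 274 cells had both, beside 238 expected, a ratio of 1.15 (1.02 to 1.29). With paired receptors only, the spleen interval included 1 (1.14, 0.996 to 1.30). Among spleen cells without Foxp3 the ratio was 1.06 (0.912 to 1.23), and among spleen Tcf7 cells it was 1.37 (1.18 to 1.58). Without NKT cells it was 1.26 in spleen (1.10 to 1.44) and 0.963 in brain (0.865 to 1.07). Put as shares, Nt5e was detected in 41.6% of brain cells with Entpd1 and 40.7% of brain cells without it, and in 31.6% of spleen cells with Entpd1 and 26.7% without.

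The anergy pair was found together more often than independence gives, in both tissues, though it was not the only pair with such an excess. Izumo1r and Nt5e were both detected in 522 brain cells, beside 454 expected (1.15, 1.05 to 1.25), and in 1383 spleen cells, beside 1078 expected (1.28, 1.22 to 1.35). Nt5e was detected in 47.8% of brain cells with Izumo1r and 38.2% of brain cells without it, and in 35.6% of spleen cells with Izumo1r and 19.3% without. Without Foxp3 cells the ratios were 1.13 in brain and 1.30 in spleen. Within Foxp3 cells alone, brain gave 0.993 (0.821 to 1.19) and spleen 1.03 (0.928 to 1.15). Within Ifng cells, brain gave 1.23 (1.07 to 1.42) and spleen 1.45 (1.203 to 1.74). Over all cells, P2rx7 with Nt5e had a like ratio in spleen (1.29, 1.21 to 1.38) but not in brain (1.04, 0.959 to 1.12). P2rx7 with Adora2a had 1.14 in brain (1.04 to 1.25) and 1.38 in spleen (1.27 to 1.49). The excess is therefore not particular to Izumo1r with Nt5e.

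Pairs that join the ATP channel to the enzyme and the adenosine receptor stood out in spleen. P2rx7 and Entpd1 were both detected in 444 spleen cells, beside 267 expected (1.67, 1.51 to 1.83), and in 402 brain cells, beside 359 expected (1.12, 1.01 to 1.24). Entpd1 and Adora2a were both detected in 253 spleen cells, beside 149 expected (1.70), and in 252 brain cells, beside 246 expected (1.02). Without NKT cells the spleen ratios were 1.504 (1.32 to 1.70) for P2rx7 with Entpd1 and 1.61 (1.37 to 1.89) for Entpd1 with Adora2a. The brain ratio of P2rx7 with Entpd1 was then 1.07 (0.959 to 1.19), with an interval that included 1.

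Cells without Foxp3 that had both Izumo1r and Nt5e were then set against cells without Foxp3 that had neither, across all genes. In brain 406 cells had both and 1731 neither, with median depths of 10094 and 9310 UMIs. In spleen 1032 had both and 3212 neither, with median depths of 7633 and 6993 UMIs. Of 19 anergy genes other than the members, 16 were measured in brain, with 5 higher and 0 lower, and 17 in spleen, with 11 higher and 0 lower. All genes gave 3.30% higher and 3.88% lower in brain, and 6.66% higher and 3.86% lower in spleen. The list medians were 0.33 in brain and 1.32 in spleen on the log2 scale, beside 0.005 and 0.06 over all genes.

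Inhibitory receptors were among the genes called. Lag3, an MHC class II receptor, stood at 51.4 CPM in brain cells with both, against 12.5 CPM with neither (ratio 4.13), and at 41.2 against 2.13 CPM in spleen (19.4). Pdcd1, which encodes PD-1, stood at 125 against 53.3 CPM in brain (2.35) and 184 against 15.3 CPM in spleen (12.1). Ctla4 reached 928 against 431 CPM in brain (2.15) and 343 against 53.8 CPM in spleen (6.38). The ubiquitin ligase gene Rnf128 (GRAIL) was higher in brain (2.59) and spleen (5.99), as was Nrp1 (1.95 and 4.47), and Egr2, a transcription factor of the anergy programme, was higher in spleen (12.1 against 1.91 CPM).

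Markers of follicular helper cells, and some of regulatory cells, moved with them. All 6 follicular helper genes were higher in spleen and 5 of 6 in brain, among them Cxcr5 (19.6 against 2.39 CPM in brain, 73.7 against 8.02 CPM in spleen) and Il21 (10.1 against 0.736 CPM in brain, 31.8 against 0.798 CPM in spleen). Of 6 regulatory genes, 5 were compared, as Foxp3 was left out because the cells were chosen for having no Foxp3 UMI. In each tissue 3 were higher, with Ikzf2 (Helios) at 130 against 32.6 CPM in brain and 299 against 60.1 CPM in spleen. Il2ra went the other way, short of a call. It stood at 54.2 against 76.5 CPM in brain (0.709) and 37.2 against 47.1 CPM in spleen (0.790). Pdcd1 and Ctla4 belong to these lists as well as to the anergy list. When cells with an Ikzf2 UMI were left out, the number of higher anergy genes was 6 in brain and 7 in spleen. The effector cytokines were lower in brain cells with both: Ifng at 232 against 446 CPM and Il17a at 86.7 against 199 CPM.

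The same comparison was made for Entpd1 with Nt5e. In brain 317 cells without Foxp3 had both and 1727 neither, with median depths of 11204 and 9187 UMIs. Of 16 anergy genes 5 were higher, the same 5 as for Izumo1r with Nt5e (Nrp1, Rnf128, Lag3, Pdcd1 and Ctla4), and 2 were lower, beside 3.73% higher and 2.60% lower over all genes. In spleen 180 cells had both and 4776 neither, with 9 of 16 higher and 1 lower, beside 15.0% higher and 3.38% lower over all genes. The 9 became 5 when cells with an Ikzf2 UMI were left out, and 5 of 5 measured regulatory markers and 4 of 6 follicular helper markers were higher in these spleen cells. In brain 2 of 5 regulatory and 2 of 4 follicular helper markers were higher. Brain cells with both had more Ifng (434 against 267 CPM) and less Tcf7 (230.3 against 475 CPM). Spleen cells with both also had more Ifng (57.8 against 16.6 CPM), Izumo1r (469 against 190 CPM), P2rx7 (147 against 55.0 CPM) and Adora2a (46.4 against 22.7 CPM).

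**Figure D4:**
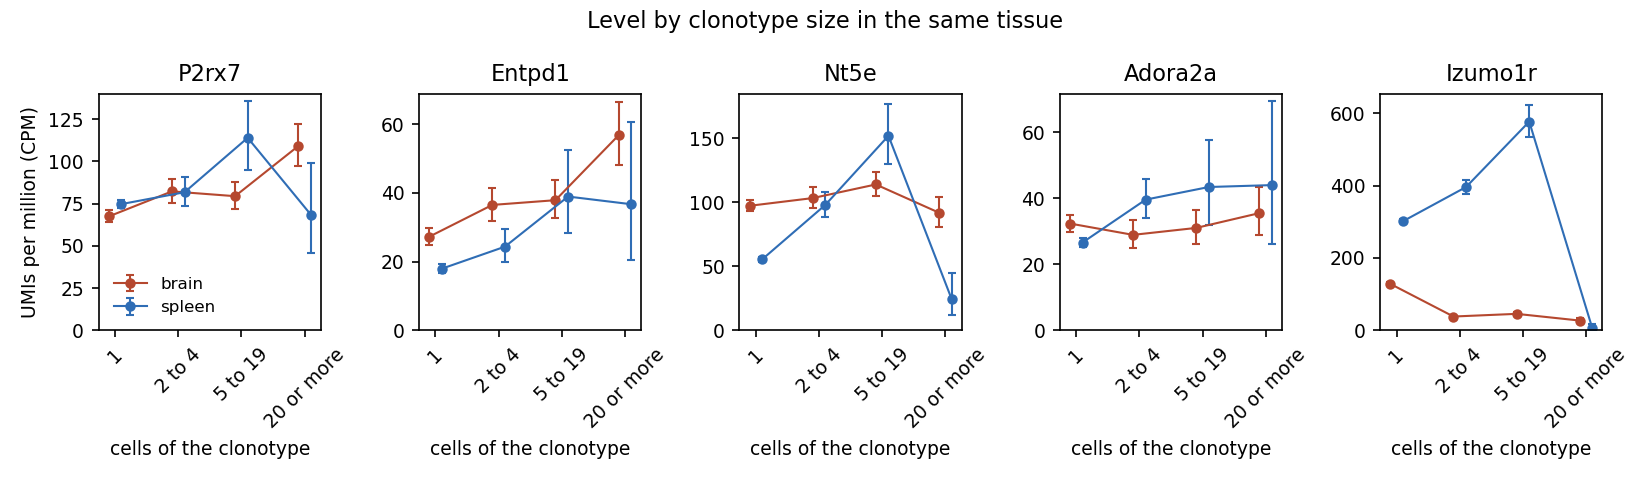
Level in CPM of each gene by the number of cells that share a paired receptor within the tissue, in brain (red) and spleen (blue); points are summed UMIs of 1 library and bars exact 95% counting intervals. Izumo1r in brain stands at 128 CPM in cells with an unshared receptor and 26.7 CPM in clonotypes of 20 or more cells; the spleen point at 20 or more is 1 clonotype of 60 cells.

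Receptor sequences gave the size of each cell's clonotype, the set of cells with the same paired chains. Paired chains were found in 3127 brain cells, in 2129 clonotypes, and in 6734 spleen cells, in 6244 clonotypes. Cells of clonotypes with 5 or more members were compared with cells whose receptor was seen 1 time: 723 cells of 64 clonotypes against 1838 cells in brain, and 213 cells of 23 clonotypes against 5987 cells in spleen. Of the 5 genes, 1 was higher and 1 lower in brain, where 5.22% of all genes were higher and 3.55% lower. In spleen 3 were higher and 0 lower, where 13.8% of all genes were higher and 5.68% lower.

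Izumo1r fell to 38.6 CPM in expanded brain cells, against 128 CPM in single ones, a ratio of 0.301 (0.266 to 0.340). Its share of positive cells was 17.0% in expanded and 38.0% in single brain cells. Foxp3 also fell with expansion, to 1.59 CPM, against 49.0 CPM, and Ifng was higher at 621 against 177 CPM. Without Foxp3 cells the log2 ratio of Izumo1r was -1.41, against -1.73 with them. In spleen, Izumo1r averaged 423 CPM in expanded cells and 302 CPM in single cells (1.40, not called) while its share of positive cells was 34.7% in expanded and 50.8% in single cells, so no order is read. Leaving out the largest spleen clonotype gave a log2 ratio of 0.94, called higher, as did leaving out Foxp3 cells (0.80), whereas counting as expanded only clonotypes of 10 or more cells gave -0.71, called lower.

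Entpd1 was higher in expanded cells of both tissues, at 44.7 against 27.2 CPM in brain (1.64) and 38.3 against 17.9 CPM in spleen (2.14). Averaged over clonotypes the brain ratio was not called (log2 0.53), and without NKT cells the spleen log2 ratio was 1.82. Nt5e was higher in expanded spleen cells (118 against 55.4 CPM, ratio 2.12) but not with a minimum of 10 cells (log2 0.063), and stood at 106 against 97.3 CPM in brain. Adora2a was higher in expanded spleen cells (43.6 against 26.6 CPM, 1.64) and stood at 32.7 against 32.4 CPM in brain. P2rx7 stood at 90.2 against 67.4 CPM in brain and 102 against 74.8 CPM in spleen, both short of a call. By size, brain Entpd1 was 27.2 CPM in single cells, 36.5 in clonotypes of 2 to 4, 37.9 in those of 5 to 19 and 56.8 CPM in those of 20 or more.

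Single clonotypes differed widely. Over the 18 brain clonotypes with 10 or more cells, Izumo1r was 0 in 4 and reached 454 CPM, with a median of 18.1 CPM, and Nt5e ran from 0 to 449 CPM with a median of 63.0. The largest brain clonotype (67 cells, 59 of them Ifng cells) had 178 CPM of P2rx7 and 45.5 CPM each of Nt5e and Izumo1r. Brain clonotype 8 by size (19 cells, 18 of them Ifng cells) had 449 CPM of Nt5e, 250 CPM of Izumo1r and 11.1 CPM of P2rx7. The largest spleen clonotype, of 60 cells with 57 more in brain, had 2 Izumo1r UMIs (4.89 CPM), while spleen clonotypes 3 and 4 by size, of 10 and 9 cells and none in brain, had 1334 and 1331 CPM. Those 2 clonotypes were chosen after their values were seen.

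Clonotypes present in both tissues allow the tissues to be compared over the same set of receptors. Levels are UMIs summed over the set, so a clonotype can weigh differently in each tissue and the receptor is not held fixed. There were 188, with 568 brain and 410 spleen cells and 0 NKT cells among the brain ones. Izumo1r had 68.1 CPM in the brain cells and 247 CPM in the spleen cells of these clonotypes, a ratio of 0.275 (0.244 to 0.311), and it was higher in brain in 32 clonotypes, higher in spleen in 63 and equal in 93. A clonotype with no Izumo1r UMI in either tissue counts as equal. In the 17 clonotypes with 3 or more cells in each tissue, 21.3 CPM in brain cells stood against 75.8 CPM in spleen cells, a ratio of 0.281 (0.188 to 0.413). This rests on 40 brain and 86 spleen UMIs, and Izumo1r was higher in brain in 4 of the 17, higher in spleen in 7 and equal in 6. Nt5e had 104 CPM in brain and 74.6 CPM in spleen cells of the 188 (1.40), Entpd1 41.2 and 30.0 CPM (1.37), P2rx7 77.5 and 75.2 CPM (1.03) and Adora2a 34.97 and 40.7 CPM (0.860), all short of a call. By clonotype, Nt5e was higher in brain in 77 and in spleen in 65, and Entpd1 in 49 and 33. P2rx7 was higher in brain in 76 and in spleen in 52, and Adora2a in 59 and 52. In the 17 larger clonotypes the ratio was 1.28 for Nt5e (0.872 to 1.92) and 1.05 for Entpd1 (0.728 to 1.54), both with intervals that included 1. Shared clonotypes are cells of the same 2 libraries, so this is a further view of the tissue ratio and not a replicate of it.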

How the data were processed

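Single-cell RNA and receptor libraries of brain and spleen were analysed. The deposited matrices hold whole-number UMI counts per gene and barcode, made by the authors with Cell Ranger 9.0.0, per the file headers and the submitters' processing notes. The receptor tables the authors deposited give chains per barcode, of which only the cell, chain, gene and junction fields were used. Several names of genome builds stand in the notes and their role is not stated, hence no coordinate comes from the files.

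Barcodes with 500 or more genes, 1000 or more UMIs and at most 10% mitochondrial UMIs were kept. Those with 3 of 8 B cell markers or 4 of 10 myeloid markers (4 and 20 in brain, 165 and 3 in spleen) were dropped, as were those with more than 1 TRB or 2 TRA chains (179 in brain, 315 in spleen), which also served as the doublet filter. This left 3944 of 4277 brain and 7992 of 8707 spleen barcodes, beside 18718 and 38000 cells loaded per the labels. UMIs were summed per group and divided by all UMIs of the group. Ratios have exact conditional binomial 95% intervals, counts exact Poisson and shares exact Clopper-Pearson ones, all of counting error alone. A count of 0 allows 3 UMIs, 0.0730 CPM in brain and 0.0496 CPM in spleen over all cells. With 1 library per tissue no test was run.

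The members and gene lists (purine receptors, nucleotide enzymes and transporters, folate, anergy, stress and early-response, regulatory and follicular helper markers) were chosen with earlier results of these data known. Named were all 5 members, the state genes and, per list, up to 5 called genes by ratio. For pattern likeness the 5 genes of highest r per member were named, except 1 for P2rx7 that is not reported here. The calls were checked on simulated counts that held counting error alone. Variation between cells, mice or libraries was not covered. Tools were Python 3.11.15, numpy 2.4.6, scipy 1.17.1, pandas 2.3.3, R 4.3.3 and edgeR 4.0.16, the last for TMM factors only.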

Additional observations from a re-analysis of the deposited data

Results flagged for a closer look

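In each case below the 2 tissues moved in opposite directions under the same contrast at the settings used above, with both counting intervals leaving out no change. Each tissue is 1 library, and the difference between the tissues was not tested. Nt5e was lower in brain cells with Ifng than in brain cells without it, with a log2 ratio of -0.62, while the log2 ratio in spleen was 0.28. With a minimum of 2 Ifng UMIs the spleen value was -0.14, with an interval that included 0. For Izumo1r, the log2 ratio of expanded over single clonotypes was -1.73 in brain and 0.49 in spleen. In spleen this ratio rests on a few clonotypes, of which numbers 3 and 4 by size held 1334 and 1331 CPM and the largest 4.89 CPM. With clonotypes of 10 or more cells it was -0.71 in spleen, the same direction as in brain, and the share of spleen cells with Izumo1r was 34.7% in expanded and 50.8% in single clonotypes, so no direction is read for spleen.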

How the results depend on the processing

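Each alternative changed 1 choice, except that cells of 1 state only were also set against another comparison group and means over clonotypes also used paired receptors alone. No paired analysis was possible because each tissue has 1 library and the tissues share only replicate number 1. The 3 genes called between the tissues kept their direction under every alternative run, and the 2 uncalled genes stayed uncalled. Averaged over cells, 1 of the 5 genes was called, at log2 ratios of 0.56 for Entpd1, 0.54 for Nt5e and -1.72 for Izumo1r. Averaged over clonotypes, the log2 ratios were -0.14 for P2rx7, 0.58 for Entpd1 and -1.31 for Izumo1r. Thinning gave 0.61 for Nt5e and -1.72 for Izumo1r, and median-of-ratios factors -1.74 for Izumo1r. Without Foxp3 cells they were 0.89 for Entpd1 and 0.82 for Nt5e. Without NKT cells they were 0.30 for P2rx7, 1.09 for Entpd1, 0.40 for Adora2a and -1.88 for Izumo1r. In brain cells with the least stress RNA, a comparison added after seeing the data, they were -0.20 for P2rx7, 0.080 for Adora2a and -1.35 for Izumo1r.

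Called state ratios kept their direction in 157 of 164 alternatives and lost their call in 13, most of them against cells with no state gene. These alternatives are re-runs of the same called ratios and are not independent. Ratios not called at first could also gain a call. Averaged over cells, where no interval was asked for, 15 brain pairs passed, against 12 at the main settings. Called clone size ratios kept theirs in 35 of 35 and lost 2 calls, Entpd1 in brain averaged over clonotypes and Nt5e in spleen from 10 cells. The 7 that reversed set cells of 1 state against cells with no state gene, a different comparison group: Entpd1 with Ifng in brain (-0.27) and spleen (-0.63), Izumo1r with Ifng in brain (0.11), Entpd1 with Foxp3 in spleen (-1.20), P2rx7 with Cxcr5 (-0.90) and with Ifng (-0.50) in spleen, and Adora2a with Ifng in spleen (-0.17). Co-detection after thinning was 0.851 in brain and 1.39 in spleen for Entpd1 with Nt5e, and 1.499 in spleen for Izumo1r with Nt5e. Averaged over clonotypes, 1 gene, Izumo1r, was called by clone size in brain. Without the largest spleen clonotype, all 5 were called in spleen, but the share of all genes called at that setting was not computed. With that clonotype kept, 13.8% of all genes were higher and 5.68% lower in expanded spleen cells. Without cells with an Ikzf2 UMI, also added later, 7 anergy genes were higher with Izumo1r and Nt5e in spleen and 5 with Entpd1 and Nt5e. The cause of these shifts was not tested. Depth limits low genes most: Entpd1 and Adora2a rest on about 1 to 2 UMIs per positive cell.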

Other observations

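Cells whose clonotype was found in both tissues were set beside cells whose clonotype was not. In spleen, Entpd1 stood at 30.0 CPM in the 410 cells seen in brain as well, against 18.3 CPM in the 6324 cells not seen there, a ratio of 1.64 (1.31 to 2.03). Adora2a stood at 40.7 against 27.4 CPM in the same spleen cells (1.49, 1.23 to 1.79), and Izumo1r at 247 against 317 CPM (0.781). In brain, Entpd1 stood at 41.2 against 31.1 CPM (1.32, 1.14 to 1.53) and Izumo1r at 68.1 against 96.2 CPM (0.708, 0.636 to 0.786). P2rx7 differed by less than its counting interval in both tissues, with ratios of 1.03 in brain and 0.988 in spleen. A clonotype with more cells is more likely to be seen in both tissues, so these values are not independent of clone size.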
